A study of Mus musculus with 8 samples.

Results

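Endothelial wells were looked for in single-cell libraries from untreated, wild-type mice of the C57BL/6N strain, whose extraembryonic yolk sac was taken at embryonic day 9.5. Per the labels, 4 libraries hold EMP cells (erythromyeloid progenitors, the yolk sac cells that give rise to red cells, macrophages and other myeloid cells) and 4 hold A1 and A2 cells, the macrophage precursors downstream of them. The 8 libraries hold 1536 wells in all and carry the same batch letter, and the protocol states a stain for CD45 and CD11b and a sort of CD45-positive cells. No label says that libraries come from separate animals, so spread and p-values here measure differences between libraries, which may be technical.

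Endothelial wells were chosen by measured transcript levels. A well was taken when it held at least 5000 transcripts and its summed level of Plvap, Clec14a, Cldn5, Cdh5, Kdr and Ramp2, relative to the mean over EMP wells, was at least 1.5 and higher than the same ratio for 7 blood progenitor genes (Fermt3, Plek, Lmo2, Rac2, Coro1a, Ptpn7 and Runx1) and for 6 endoderm genes (Apoa1, Apoa4, Apoc2, Rbp4, Ttr and Cldn7). This gave 57 of the 505 EMP wells with enough transcripts, and 811 of the 1536 wells of the series passed that minimum. Of the other 448 EMP wells, 141 had the highest ratio for progenitor genes, 171 for endoderm genes, and 136 reached 1.5 for none of the 3 sets. The endothelial wells numbered 17, 11, 18 and 11 in EMP libraries 1 to 4.

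Endothelial cells line the blood vessels. In the yolk sac they form the first vascular plexus between mesoderm and endoderm, and a specialised fraction of them, hemogenic endothelium, turns on Runx1 and releases blood progenitors. Lyve1, a hyaluronan receptor best known from lymphatic vessels, is also found on yolk sac endothelium, and Stab1, Stab2, Mrc1 and Gpr182 encode receptors by which sinusoidal and lymphatic endothelium takes up macromolecules or chemokines.

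The results on vessel uptake receptors turn on Lyve1, Stab2, Mrc1 and Gpr182. For 3 of 5 genes looked up (these 4 and Stab1), RefSeq's table of mouse promoters on build GRCm38.p6 held an entry. The 250 bases before the start of these genes are shown because their levels in the endothelial wells are described further on. They read 5′ to 3′ on the gene's strand, with matches to AGGAAG, the core bound by ETS factors such as Ets1 and Erg, on either strand in capitals (CTTCCT on the other strand). Stab2 lies on the minus strand of chromosome 10 (chr10:87007943-87008192), Mrc1 on the plus strand of chromosome 2 (chr2:14229164-14229413) and Stab1 on the minus strand of chromosome 14 (chr14:31168642-31168891).
Stab2: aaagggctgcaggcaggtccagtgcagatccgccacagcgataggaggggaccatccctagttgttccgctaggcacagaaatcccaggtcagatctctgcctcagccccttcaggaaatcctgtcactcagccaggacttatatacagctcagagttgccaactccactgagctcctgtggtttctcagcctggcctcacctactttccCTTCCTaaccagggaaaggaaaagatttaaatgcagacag
Mrc1: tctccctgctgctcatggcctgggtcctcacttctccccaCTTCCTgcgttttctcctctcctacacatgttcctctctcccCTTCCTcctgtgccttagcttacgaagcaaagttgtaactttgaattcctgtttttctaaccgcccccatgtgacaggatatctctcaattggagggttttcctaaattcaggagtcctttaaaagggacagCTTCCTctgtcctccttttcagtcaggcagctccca
Stab1: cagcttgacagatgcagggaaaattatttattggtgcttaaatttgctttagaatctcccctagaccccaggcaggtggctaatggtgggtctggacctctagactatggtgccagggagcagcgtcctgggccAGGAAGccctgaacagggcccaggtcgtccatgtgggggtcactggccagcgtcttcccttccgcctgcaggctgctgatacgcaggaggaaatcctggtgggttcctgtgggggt
The Mrc1 window holds 3 matches, and the Stab2 and Stab1 windows 1 each. Of all 32851 promoter windows of that length, 29.5% hold at least 1. TGCTGA, part of the site of MAF factors, was found once in the Stab1 window and in 16.1% of all windows. These are matches of letters and were not set against binding data.

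The endothelial wells were shallower than the rest. Their median total was 14443 transcripts (6721 to 69223), against 29240 in the other EMP wells. Endothelial ratios ran from 1.59 to 24.7 with a median of 4.64. The wells just inside the threshold had ratios of 1.592, 1.728 and 1.823, and those just outside it 1.496, 1.461 and 1.412. Transcripts were counted gene by gene, and 29 wells held transcripts of all 6 endothelial genes, 17 of 5, 8 of 4 and 3 of 3. Of the 57 wells, 17 also had a progenitor (12) or endoderm (5) ratio of 1.5 or more, and 45 kept the endothelial label when its ratio had to be 2 times each other ratio. No doublet caller was run because cells were sorted singly, and every well barcode of a library recurs in the other 7 by design.

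The genes that chose the wells are given as a description. Plvap, which encodes the diaphragm protein of fenestrated vessels, was at 491, 633, 533 and 747 CPM (transcripts per 1e6 of the summed wells) in libraries 1 to 4 of the endothelial wells. Kdr, the main VEGF receptor of endothelium, was at 399.6, 331, 361 and 419.8 CPM, and Cdh5, the cadherin of endothelial junctions, at 141, 120.4, 118 and 171 CPM. Summed over all other wells of a library, these genes did not exceed 40.7, 29.6 and 10.1 CPM in any library. Their means in progenitor wells alone were higher, at 66.7, 60.4 and 15.2 CPM. Of the other wells, 13 reached the minimum endothelial ratio of the rule but did not have it as their highest ratio. Markers outside the rule are a description as well, since the lists were chosen with earlier results of these data known. Lyve1 and Gpr182 were higher in the endothelial wells of 4 of 4 libraries. Cd34 and Pecam1, textbook endothelial surface genes, were at 184 ± 41.0 and 128 ± 16.8 CPM (SD, n = 4 libraries). In progenitor wells they were at 218 ± 42.7 and 41.0 ± 3.41 CPM. Runx1, one of the progenitor genes of the rule, was at 57.4, 144, 124 and 97.7 CPM, and 21 of 57 wells had a Runx1 transcript at 5000 transcripts per well against 104 of 141 progenitor wells and 4 of 171 endoderm wells.

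Genes of the sort and of other lineages were low but not absent. Ptprc, which encodes CD45, was at 0, 12, 5.91 and 8.14 CPM, and 2 of 57 endothelial wells had a transcript of it at 5000 transcripts per well (3.51%, exact 95% interval 0.428 to 12.1, counting error only). The same share was 2.92% in endoderm wells, so no CD45 expression is read from it. In all transcripts 5 of 57 wells (8.77%) held one, against 13 of 171 endoderm wells. Itgam, which encodes CD11b, was at 0 to 18.1 CPM. Of 10 macrophage markers, 2 were at 0 in all 4 libraries, and their summed level was 12 to 41.4 CPM against 43.4 to 87.1 in the other wells. Csf1r, the receptor of the main macrophage growth factor, was at 0 to 11.8 CPM.

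The summed level of 14 endoderm markers outside the rule was 6269 to 8781 CPM in the endothelial wells, 3735 to 4964 in progenitor wells and 18646 to 21516 in endoderm wells. Afp, a serum protein of yolk sac endoderm, was at 2523, 1667, 1738 and 2885 CPM in the endothelial wells. Its mean of 2203 ± 598 CPM stood between 1075 ± 121 in progenitor and 6600.1 ± 987 in endoderm wells. Globin transcripts were present too: Hbb-y, an embryonic globin whose reads near-identical globin genes may share, was at 226 ± 102 CPM, against 498 ± 755 in progenitor wells, 346 ± 282 in endoderm wells and 3688 ± 3399.7 in wells of none of the 3 sets. The spread between libraries in these other classes was as large as their means or nearly so, and no order is read from it. Mesenchyme markers (10) summed to 77.3 to 1392 CPM, against 73.2 to 939 CPM in the other wells. The highest value came from endothelial wells of library 3, where 184 of 193 Col1a1 transcripts lay in 1 well. The part of these lineages' RNA in the results that follow was not tested.

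The comparison of endothelial with other wells was run over 9915 genes, without the 19 genes of the rule, on sums per library. Other endothelial genes go with those that chose the wells, so its counts describe the chosen wells and are no test. At an adjusted p under 5% by edgeR's quasi-likelihood test, 7.72% of genes were called higher and 5.82% lower (13.5% in all), 765 and 577 genes, and over all genes tested the log2 fold change had a median of -0.03. Leaving out library 3 gave 730 called genes and leaving out library 4 gave 873. Genes higher in 4 of 4 libraries made up 16.6%. The 7.72% and 5.82% are the shares to set beside the counts of called genes in each list that follows.

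Uptake receptors were among the genes with the largest differences. Of 11 tested genes of the scavenger list, 9 were called higher and 1 lower, with a median log2 fold change of 3.61. Lyve1 was at 629, 749, 1345 and 638 CPM in the endothelial wells and at 30.3 to 82.9 CPM in the others. The libraries did not overlap, and library 3 was the highest (log2 fold change 3.63 ± 0.39, SE). Gpr182, an atypical chemokine receptor, was at 83.5, 90.3, 85.8 and 77.4 CPM against 0.775 to 2.73 CPM (5.57 ± 0.37). It was the most even of the uptake genes across libraries. Stab2, a clearance receptor for hyaluronan, was at 102, 66.2, 101 and 110.0 CPM against 0.969 to 4.55 CPM (5.14 ± 0.35). Its relative Stab1 was at 86.0, 54.2, 41.4 and 65.1 CPM against 0.812 to 3.86 CPM (4.71 ± 0.38). Mrc1, the mannose receptor CD206, was at 86.0, 72.3, 109 and 143 CPM against 5.43 to 17.1 CPM (3.41 ± 0.29). All 5 genes were apart from the pooled other wells in every library. Progenitor wells alone held Lyve1 at 136 ± 29.3 CPM and Mrc1 at 20.2 ± 11.4 CPM, against 29.5 and 5.49 CPM in endoderm wells. Gpr182, Stab2 and Stab1 were at 1.79, 3.99 and 1.64 CPM in progenitor wells and at 2.02, 3.10 and 3.11 CPM in endoderm wells.

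Further members of that list were lower in level. Cd36, a fatty acid receptor, was at 37.2 ± 20.5 against 1.55 ± 0.874 CPM, Scarf1 at 46.2 ± 18.6 against 7.40 ± 3.14 CPM and Cav2, of caveolae, at 10.4 ± 4.33 against 0.807 ± 0.795 CPM. Ehd4, an endocytic recycling gene, was at 130.3 ± 23.1 against 48.9 ± 3.65 CPM. The transcription factor Maf differed little (315 ± 50.9 against 255 ± 20.1 CPM). Dab2, a clathrin adaptor, was the member called lower (629 ± 125 against 1136 ± 333 CPM), and it stood at 1615 ± 231 CPM in endoderm wells. Of the 13 members, Cav1 and Fcgr2b were too low to be tested.

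**Figure D1:**
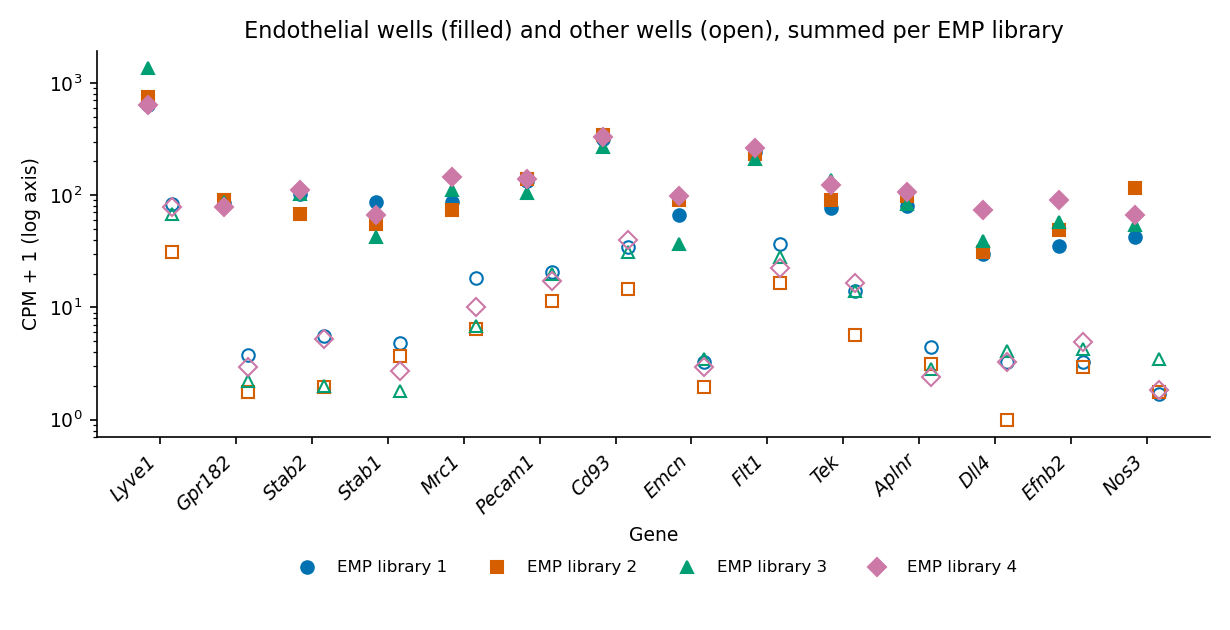
CPM + 1 on a log axis of 14 genes outside the rule, in endothelial wells (filled symbols) and in all other wells (open symbols) summed within each of the 4 EMP libraries (colour and shape). In each gene every filled symbol lies above every open one, from Lyve1 at 629 to 1345 CPM to genes near 50 CPM such as Dll4 and Efnb2.

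Junction and surface genes were higher in most cases: 13 of 15 tested were called higher and 1 lower, with a median log2 fold change of 2.87. Cd93, a C-type lectin receptor of vessels, was at 318, 343, 269 and 330.0 CPM against 28.9 ± 10.8 CPM. Pecam1, the adhesion molecule CD31, was at 133, 138, 104 and 138 CPM against 16.3 ± 4.22 CPM, and Emcn, a sialomucin of venous and capillary endothelium, at 65.2, 90.3, 35.5 and 97.7 CPM against 1.91 ± 0.657 CPM. Cd34 was higher than in all other wells (log2 fold change 1.11 ± 0.17), yet its 184 CPM compare with 218 CPM in progenitor wells. Podxl was the member called lower (272 ± 49.6 against 499 ± 89.4 CPM), with 688 CPM in endoderm wells. F11r was not called (205 ± 22.9 against 167 ± 35.1 CPM).

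Receptors of the VEGF, angiopoietin and apelin pathways were among the higher genes. Of 10 tested genes of the VEGF and angiopoietin list, 6 were called higher and 0 lower. Flt1, a VEGF receptor that mostly holds back the ligand, was at 243, 229, 207 and 261 CPM against 24.9 ± 8.59 CPM (log2 fold change 3.15 ± 0.18). Tie1 and Tek, the angiopoietin receptor pair, were at 314 ± 91.5 and 106 ± 27.9 CPM against 68.6 ± 25.1 and 11.5 ± 4.73 CPM. Tie1 was lowest in library 1 (177 CPM) and at 346 to 370.0 CPM elsewhere. The co-receptor Nrp2 was at 157 ± 34.8 against 49.1 ± 7.79 CPM. Nrp1 was at 218 ± 61.9 against 17.6 ± 14.6 CPM and higher in 4 of 4 libraries, but was not called (3.62 ± 0.78). Aplnr, the apelin receptor, was at 78.2, 96.3, 82.9 and 106 CPM against 2.19 ± 0.863 CPM, while its ligand Apln was at 0 to 23.5 CPM and not called. Calcrl, which pairs with Ramp2 as the adrenomedullin receptor, was at 115 to 244 CPM against 8.14 to 30.7 CPM.

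BMP and TGF-beta genes divided. Of 11 tested, 6 were called higher and 1 lower, against 7.72% higher and 5.82% lower over all genes tested. The BMP target Id3 was at 198 ± 50.8 against 74.9 ± 21.6 CPM and the receptor Tgfbr2 at 39.1, 36.1, 101 and 151 CPM against 14.1 ± 3.93 CPM. Id1 was at about the same level in both groups of wells (log2 fold change 0.05 ± 0.17), and Id2 was the member called lower (186 ± 73.3 against 348 ± 27.7 CPM), with 512 CPM in endoderm wells.

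Arterial and venous genes were both present. Of 8 tested Notch and arterial genes, 6 were called higher and 0 lower, with a median log2 fold change of 3.45. The Notch ligand Dll4 was at 28.7, 30.1, 38.4 and 73.3 CPM against 1.89 ± 1.31 CPM. Efnb2, which marks arteries, was at 33.9, 48.1, 56.2 and 89.6 CPM, with library 4 the highest for both. The transcription factor Sox17 was at 36.5 to 78.3 against 3.66 to 6.59 CPM, the gap junction gene Gja4 at 57.1 ± 37.2 against 3.44 ± 1.69 CPM, and the receptors Notch1 and Notch4 at 22.6 ± 13.7 and 18.6 ± 10.9 CPM. Hes1 and Unc5b were not called, with log2 fold changes of 0.00 ± 0.29 and 0.02 ± 0.28. Gja5 and Hey1 were higher in 4 of 4 libraries at 14.5 ± 11.3 and 13.8 ± 11.9 CPM, too low to be tested.

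Of 6 venous genes, 5 were called higher and 0 lower. Nr2f2, the transcription factor of veins, was at 46.9, 18.1, 32.5 and 24.4 CPM against 13.6 ± 3.01 CPM, which is a smaller difference than that of Aplnr, Flt4 (33.2 ± 6.09 against 3.85 ± 0.641 CPM) or Vwf (17.9 ± 8.38 against 1.33 ± 0.539 CPM). Ephb4, the receptor of Efnb2, was higher in 4 of 4 libraries and not called (log2 fold change 0.92 ± 0.40). With each well thinned to 5000 transcripts, 12 wells had a transcript of 5 arterial genes (Dll4, Efnb2, Gja5, Sox17 and Hey1) and none of 3 venous genes (Aplnr, Nr2f2 and Ephb4), 11 had only venous ones, 14 had both and 20 neither. In all transcripts these counts were 11, 9, 26 and 11, so more of the wells showed both kinds where more transcripts were counted.

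Among 19 tested transcription factors of endothelium, 13 were called higher and 0 lower, with a median log2 fold change of 1.37. Ets1 was at 91.2, 78.3, 94.7 and 97.7 CPM against 8.37 ± 3.43 CPM. Elk3, another ETS factor, was at 112 ± 47.5 against 14.3 ± 4.26 CPM and Ets2 at 92.9 ± 3.08 against 42.1 ± 2.67 CPM. Mef2c was not called (161 ± 51.3 against 129 ± 38.5 CPM) and stood at 348 CPM in progenitor wells.

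Hemogenic genes were mixed. Of 15 tested, 5 were called higher and 0 lower (median log2 fold change 0.40), against 7.72% higher and 5.82% lower over all genes tested. Gfi1, a repressor that shuts down endothelial genes as blood cells emerge, was at 5.21, 42.1, 26.6 and 24.4 CPM against 1.68 ± 0.649 CPM, with progenitor wells at 2.06 CPM. Mecom, a factor of stem cells and arterial endothelium, was at 15.6, 66.2, 23.7 and 102 CPM against 1.91 ± 1.09 CPM. Procr, the protein C receptor, was at 10.4, 6.02, 82.9 and 69.2 CPM against 3.21 ± 2.06 CPM. Gfi1 and Mecom were lowest in library 1, and Procr was lowest in library 2.

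Kit, the stem cell factor receptor, was at 104 ± 29.3 CPM in endothelial wells, 135 ± 14.2 in progenitor and 13.1 ± 7.93 in endoderm wells. At 5000 transcripts, 24 of 57 endothelial wells had a Kit transcript (42.1%), against 70 of 141 progenitor (49.6%) and 10 of 171 endoderm wells (5.85%). Mycn was at 186 ± 85.4 against 69.6 ± 15.2 CPM in all other wells, with 144 ± 21.3 CPM in progenitor and 32.0 ± 10.6 CPM in endoderm wells. Genes of committed progenitors were not called in either direction. Myb was at 24.5 ± 11.5 CPM, Spi1 at 15.5 ± 7.20 CPM and Gfi1b at 15.3 ± 8.32 CPM, against 87.3, 42.7 and 64.9 CPM in progenitor wells. Gata2 (53.3 ± 19.5 CPM), Itga2b (43.2 ± 14.9), Cd44 (113 ± 58.4), Adgrg1 (73.5 ± 34.2), Ikzf2 (77.6 ± 41.5), Neurl3 (52.0 ± 38.3) and Hlf (14.6 ± 14.5) were not called either.

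Basement membrane genes were higher in 9 of 13 tested and lower in 0. Sparc, a collagen-binding protein, was at 1258 ± 215 against 665 ± 91.2 CPM, Col4a1 and Col4a2 at 600.4 ± 84.4 and 325 ± 29.6 against 288 ± 37.3 and 153 ± 32.4 CPM, and fibronectin (Fn1) at 584 ± 58.4 against 309 ± 25.4 CPM. Of 7 tested genes of metabolism and transport, 2 were called higher and 3 lower, against 7.72% and 5.82% over all genes tested. Nos3, the endothelial nitric oxide synthase, was at 41.7, 114, 53.2 and 65.1 CPM against 1.18 ± 0.837 CPM, whereas Slc16a1 and Car4 were lower (263 ± 107 against 537 ± 61.3 and 238 ± 72.8 against 480.3 ± 113 CPM) and at 765 and 701 CPM in endoderm wells.

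Of 20 cell cycle genes tested, 1 was called higher and 0 lower (median log2 fold change -0.10), a share near the 7.72% higher and 5.82% lower over all genes, so nothing particular to these genes is read from it. The 20 genes summed to 2815 to 4419.7 CPM in endothelial wells and 3418 to 3531 in the others. Mki67 was at 309 ± 107 against 258 ± 26.7 CPM and Top2a at 279.9 ± 117 against 279 ± 28.6 CPM. Endoderm markers were lower in 11 of 14, erythroid ones in 2 of 8 macrophage ones in 1 of 4 and mesenchyme ones in 1 of 7, with 0 higher in each, and of 6 megakaryocyte and 2 mesothelium genes tested 0 were called. Genes of the stress of dissociation summed to 293 to 391 CPM in the endothelial wells and 195 to 216 in the others. Of 9 of them tested, 3 were called higher, with Jun at 60.0, 120.4, 59.2 and 65.1 CPM against 13.5 ± 1.32 CPM, and the part of this in the other differences was not tested.

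**Figure D2:**
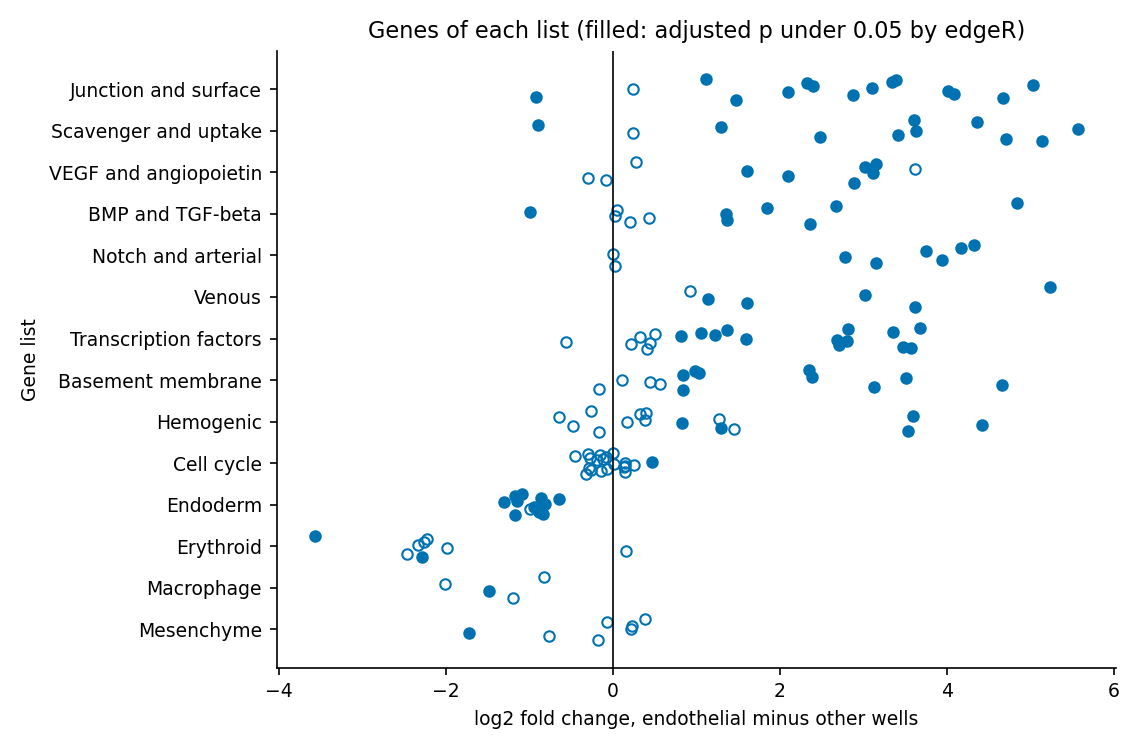
log2 fold change of endothelial minus other wells for each tested gene of 14 lists, 1 point per gene, filled where edgeR called it at an adjusted p under 0.05. Points of the vascular lists lie mostly to the right of 0, the 20 cell cycle genes lie between -0.45 and 0.47, and the 14 endoderm genes lie to the left of 0.

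The largest differences among called genes of at least 100 CPM included Pcdh17, a protocadherin, at 104, 66.2, 142 and 122 CPM against 2.02 ± 1.79 CPM (log2 fold change 5.68 ± 0.37). Mest, an imprinted gene of mesoderm, was at 386, 386, 210.2 and 518 CPM against 13.5 ± 10.8 CPM (4.73 ± 0.62). Mmrn2, an endothelial matrix protein that binds Cd93 and Clec14a, was at 83.4, 114, 101 and 195 CPM against 4.40 ± 2.00 CPM. Gap43, better known from growing axons, was at 172, 247, 130.2 and 171 CPM against 7.49 ± 1.80 CPM (4.45 ± 0.23). Ptprb, the phosphatase of Tek and Cdh5, was at 111 ± 36.4 against 5.33 ± 3.23 CPM. Vim, the intermediate filament of mesodermal cells, reached 923 ± 145 against 81.7 ± 29.1 CPM. Ldb2, Prkcdbp (a caveolar protein), She, Crip2 and Fam43a were at 109 to 185 CPM, with log2 fold changes of 3.22 to 3.68.

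The lowest by the same limits were Bin2 (47.8 ± 11.3 against 119.5 ± 9.45 CPM), Vil1, Lad1, Cubn, Nudt11 and Car7. Bin2 was highest in progenitor wells (306 CPM). Vil1, which builds microvilli, Cubn, the endocytic receptor cubilin, and the other 3 were highest in endoderm wells, from 144 CPM for Lad1 to 2207 CPM for Cubn. Their direction depended on the wells taken for comparison: against progenitor wells alone Vil1, Lad1, Cubn, Nudt11 and Car7 were at log2 fold changes of 0.65 to 0.97 in place of -1.33 to -1.26, and against endoderm wells alone Bin2 was at 0.05.

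The endothelial wells were next divided by Lyve1, which the rule did not use. Each well was thinned once to 5000 transcripts so that depth would not decide the class. A Lyve1 transcript was then found in 36 of 57 wells (63.2%, exact 95% interval 49.3 to 75.6), in 55 of 141 progenitor wells (39.0%) and in 17 of 171 endoderm wells (9.94%). The interval pools the wells of all libraries and covers counting error only, not the spread between libraries. In all transcripts it was in 77.2% of endothelial, 65.2% of progenitor and 44.4% of endoderm wells. Wells with and without Lyve1 numbered 9 and 8, 7 and 4, 16 and 2, and 4 and 7 in libraries 1 to 4. Library 3 was left out of the test for its 2 wells without Lyve1, which left 20 wells against 19 in 3 libraries. Median totals over all members were alike, 14445 and 14358 transcripts.

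Of 2398 genes tested, 1.21% (29) were higher and 0.292% (7) lower in the wells with Lyve1 at an adjusted p under 5% by edgeR's quasi-likelihood test with library as a block, and 282 had an unadjusted p under 0.05. Of 7 tested scavenger genes, 5 rose and 0 fell, with a median log2 fold change of 1.84 against -0.01 over all genes tested. These were Stab2, Gpr182, Mrc1, Maf and Dab2.

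Stab2 was at 169, 90.7 and 272 CPM in wells with Lyve1 of libraries 1, 2 and 4 and at 6.31, 0 and 6.66 CPM in those without. The groups did not overlap, and 75 transcripts stood against 2 (log2 fold change 4.91 ± 0.62, edgeR adjusted p = 8.05e-05). In library 3, outside the test, it was at 112 and 0 CPM. Mrc1 was at 129, 99.0 and 325 CPM with Lyve1 and 25.2, 0 and 26.6 CPM without (3.08 ± 0.50, adjusted p = 0.00268, edgeR). Gpr182 was at 120.0, 124 and 199 CPM with Lyve1 and 31.5, 0 and 0 CPM without (3.29 ± 0.65, adjusted p = 0.0177, edgeR). For both genes every library was higher with Lyve1, library 3 included. Stab1 was higher in 3 of 3 libraries but did not pass (105 ± 27.2 against 23.6 ± 22.2 CPM, 1.84 ± 0.54, edgeR adjusted p = 0.101). In endoderm wells Stab2, Mrc1, Gpr182 and Stab1 stood at 3.10, 5.49, 2.02 and 3.11 CPM.

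**Figure D3:**
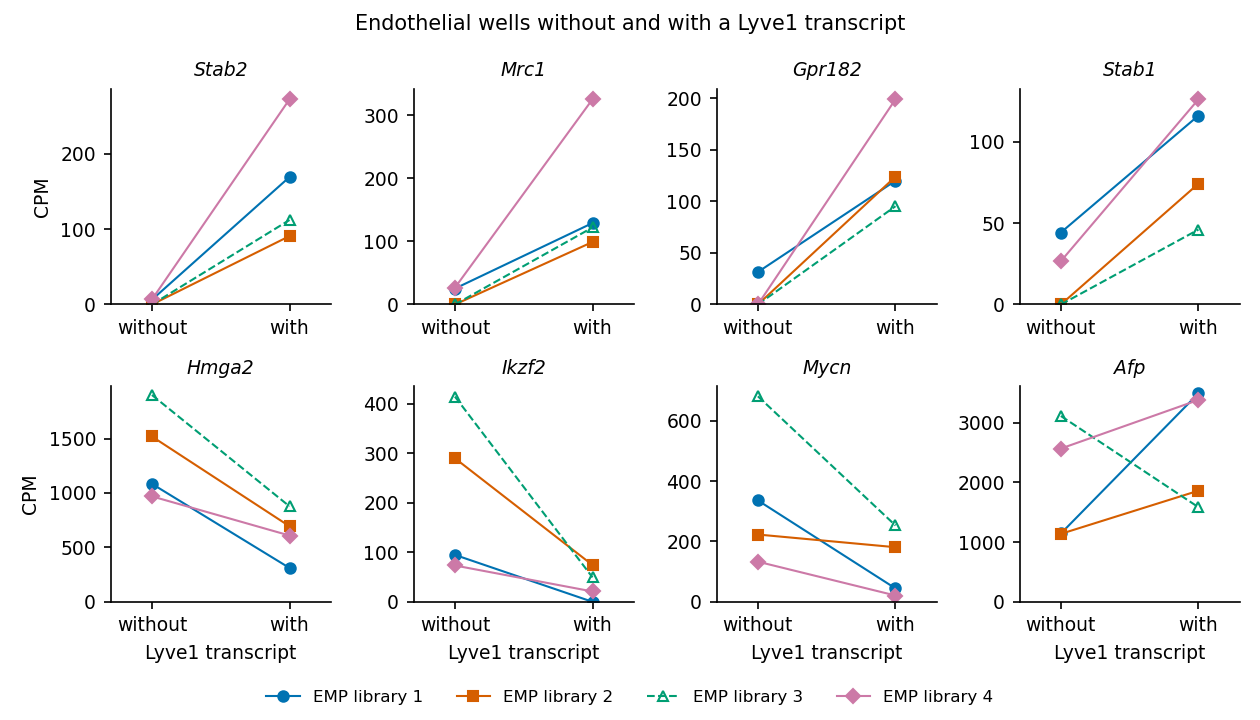
CPM of 8 genes in endothelial wells without (left) and with (right) a Lyve1 transcript, 1 line per EMP library. Library 3 (dashed, open) has 2 wells without Lyve1 and was not in the test. Stab2, Mrc1, Gpr182 and Stab1 go up in 4 of 4 libraries, Hmga2, Ikzf2 and Mycn go down in 4 of 4, and Afp goes up in 3 and down in library 3.

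The same genes were counted well by well as a description. These counts include library 3, which was outside the test and had 16 wells with and 2 without Lyve1. At 5000 transcripts, the 17 wells with over 5 Lyve1 transcripts held 27 Stab2, 29 Mrc1 and 24 Gpr182 transcripts. The 19 wells with 1 to 5 Lyve1 transcripts held 5, 3 and 1, and the 21 wells without Lyve1 held 0, 3 and 3. A Stab2 transcript was in 11, 4 and 0 wells of these classes, an Mrc1 transcript in 10, 3 and 1 and a Gpr182 transcript in 12, 1 and 2. The co-detection was not complete: 6 of the 17 wells with most Lyve1 had no Stab2 transcript, where each well was read at 5000 transcripts. Of the Stab2 transcripts, 7 lay in 1 well of library 3, which had the highest endothelial ratio of all members (24.7). Endothelial ratios reached 13.2 in wells without Lyve1, and the medians were 4.53 with and 4.96 without it. In libraries 1, 2 and 4 macrophage markers summed to 12.2 ± 4.98 CPM with and 31.0 ± 11.6 CPM without Lyve1, with 6 of the 10 at 0 in the wells with it. In library 3 they went the other way, 46 CPM with and 0 without, and over all 4 libraries 4 of the 10 were at 0 in the wells with Lyve1.

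**Figure D4:**
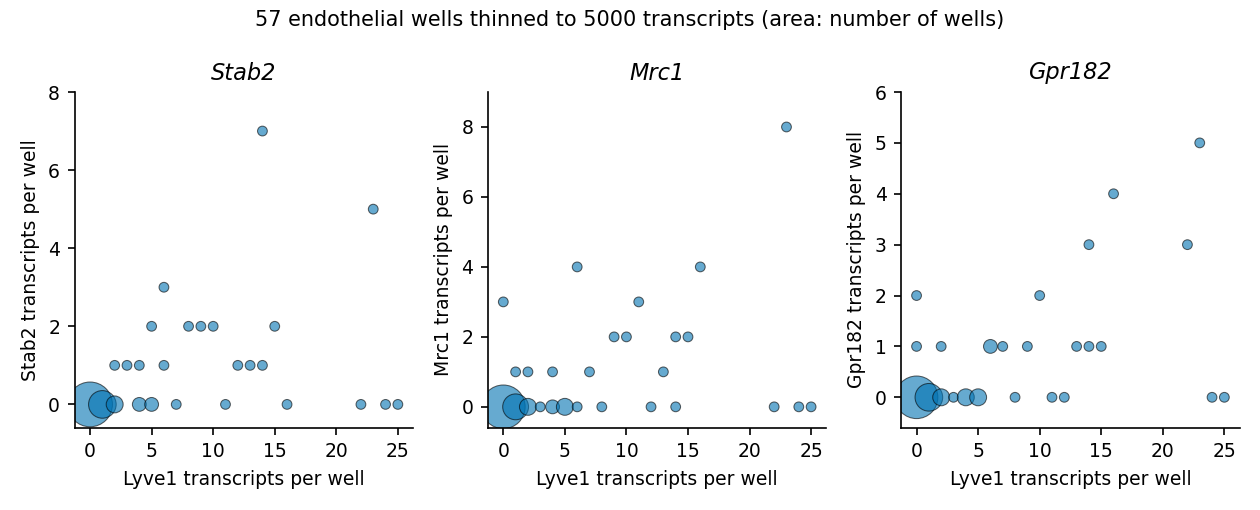
Transcripts of Stab2, Mrc1 and Gpr182 (vertical axes) against Lyve1 transcripts (horizontal axis) in the 57 endothelial wells, each thinned to 5000 transcripts, with the area of a point standing for the number of wells. Most wells with a transcript of these genes lie above 5 Lyve1 transcripts, and the largest point is that of wells at 0 for both.

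Endoderm genes moved with this split. Of 13 tested endoderm markers, 6 rose and 0 fell, against 1.21% higher and 0.292% lower over all genes tested, and the median log2 fold change was 0.99. In libraries 1, 2 and 4 their summed level was 9854 ± 2195 CPM with and 5444 ± 2037 CPM without Lyve1. Afp was at 3493, 1862 and 3383 CPM with Lyve1 and 1145, 1139 and 2568 CPM without (0.90 ± 0.19, edgeR adjusted p = 0.0227). In library 3 it went the other way (1585 and 3114 CPM). Over the wells of all libraries, library 3 included, an endoderm ratio of 0.5 or more was found in 10 of 36 with and 4 of 21 without Lyve1. The medians of that ratio over the same wells were 0.176 and 0.245. These values do not describe the tested libraries alone, and no order of the medians is read for those.

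Several genes that rose are also high in endoderm wells. Lgmn, a lysosomal protease, was at 297 ± 179 against 88.4 ± 18.6 CPM (log2 fold change 1.89 ± 0.35, edgeR adjusted p = 0.00688) and at 405 ± 52.9 CPM in endoderm wells. In library 2 Lgmn hardly differed (90.7 CPM with and 89.1 CPM without Lyve1). Maf was at 449 ± 175 against 158 ± 56.1 CPM (1.67 ± 0.31, edgeR adjusted p = 0.00688), with 352 ± 43.0 CPM in endoderm wells. Scarb1, the HDL receptor, was at 135 ± 34.4 against 26.1 ± 23.8 CPM and at 125 ± 19.2 CPM in endoderm wells. Ctsz, a cathepsin, Mt2, a metallothionein, and Dab2 rose by 1.86, 1.83 and 0.85 on the log2 scale and stood at 269.8, 375 and 1615 CPM in endoderm wells. The part of endoderm RNA in these differences was not tested. Xist, the RNA that coats the inactive X chromosome, was at 169, 57.7 and 346 CPM with and 18.9, 89.1 and 107 CPM without Lyve1 and so was higher in 2 of 3 libraries (1.72 ± 0.43, edgeR adjusted p = 0.0399).

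The 7 genes that fell in wells with Lyve1 included regulators of growth and chromatin. Hmga2, a chromatin protein of fetal progenitors, was at 311, 694 and 609 CPM with and 1084, 1519 and 969 CPM without Lyve1 (-1.23 ± 0.20, edgeR adjusted p = 0.00284). It was lower with Lyve1 in 3 of 3 libraries and the values did not overlap. Ikzf2, the transcription factor Helios, was at 0, 74.2 and 20.9 against 94.7, 289.6 and 73.3 CPM (-2.56 ± 0.60, edgeR adjusted p = 0.0312). Mycn was at 44.4, 181 and 20.9 against 336, 223 and 133 CPM (-1.85 ± 0.43, edgeR adjusted p = 0.0399). Jarid2, a partner of the Polycomb repressor, and Ndn, an imprinted growth suppressor, fell by 1.93 and 1.89 on the log2 scale. Vim and Igf2, the fetal growth factor, fell by 0.82 and 0.76. In progenitor and endoderm wells Hmga2 stood at 1001 and 104 CPM and Ikzf2 at 124 and 12.9 CPM. Mycn stood there at 144 and 32.0 CPM and Ndn at 30.9 and 6.63 CPM. Jarid2 was at 92.1 and 70.7 CPM, and Igf2 was the higher in endoderm wells (1019 and 1486 CPM). The part of endoderm RNA in these falls was not tested.

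Hemogenic genes in this comparison numbered 4 tested, of which Ikzf2 and Mycn fell and 0 rose, against 0.292% lower and 1.21% higher over all genes tested. Kit was at 22.2, 140.3 and 52.3 CPM with and 183, 156 and 93.3 CPM without Lyve1, lower in 3 of 3 libraries, and did not pass (-1.39 ± 0.48, edgeR adjusted p = 0.202). At 5000 transcripts, Runx1 was in 11 of 36 wells with Lyve1 and 10 of 21 without, Kit in 13 and 11, and Ikzf2 in 5 and 11. Mycn was in 19 and 10 wells, a slightly higher share with Lyve1 although its summed level was lower, and Gata2 in 11 and 2. Of 17 tested cell cycle genes 0 were called. Arterial and venous genes were mostly too low to be tested: Aplnr was at 113 ± 19.4 against 52.3 ± 50.2 CPM (0.81 ± 0.48, edgeR adjusted p = 0.561) and Nrp2 at 182 ± 30.8 against 114 ± 55.3 CPM (0.64 ± 0.34, edgeR adjusted p = 0.498). At 5000 transcripts Dll4 was in 4 of 36 wells with and 6 of 21 without Lyve1, and in all transcripts in 15 and 7, so the order of the shares turned with depth.

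The number of genes called in this split depended on the tool and the wells. DESeq2 called 1 gene, Stab2, and 0 genes were called by edgeR when wells had to hold 10000 transcripts (259 at an unadjusted p under 0.05). The rule was rerun there on the wells left, so the members changed as well as the depth. They numbered 15, 11, 17 and 14 in libraries 1 to 4. Without library 1 the count was 4, without library 2 it was 63 and without library 4 it was 15, where Mrc1 and Gpr182 did not pass (edgeR adjusted p = 0.104 and 0.134). Stab2 passed in 11 of the 12 alternatives in which it was tested (adjusted p of 0.109 with at least 10000 transcripts), Mrc1 in 11 of 15 and Gpr182 in 9 of 16. Without wells of an endoderm ratio of 0.5 or more, a setting added after the data were seen that left 2 libraries, Gpr182 and Mrc1 had log2 fold changes of 3.04 and 3.61 and did not pass. Of the named genes of this split, 6 were tested in that setting and 0 passed, and Stab2 was not among those tested.

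The same rule was applied to the A1/A2 libraries, with the means of the EMP wells. Endothelial wells made up 13.7%, 7.69%, 14% and 10.1% of the wells with at least 5000 transcripts in EMP libraries 1 to 4. In the A1/A2 libraries they made up 0%, 1.19%, 1.43% and 0%, from 0 of 79, 1 of 84, 1 of 70 and 0 of 73 wells. With 3 counts as the limit, counts of 0 allow shares of up to 3.80% and 4.11%. The means were 11.4% ± 3.02 and 0.655% ± 0.762 (SD, n = 4 each), a difference of 10.7 percentage points, and the libraries did not overlap (two-sided exact permutation p = 0.0286, the smallest that 70 assignments allow). With libraries of the same number taken as pairs, the exact permutation p was 0.125, the smallest possible. The rule was set on EMP wells, so these p-values are a description and are not read as support. The sort gates alone can set this share, and counting intervals cover counting error only.

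**Figure D5:**
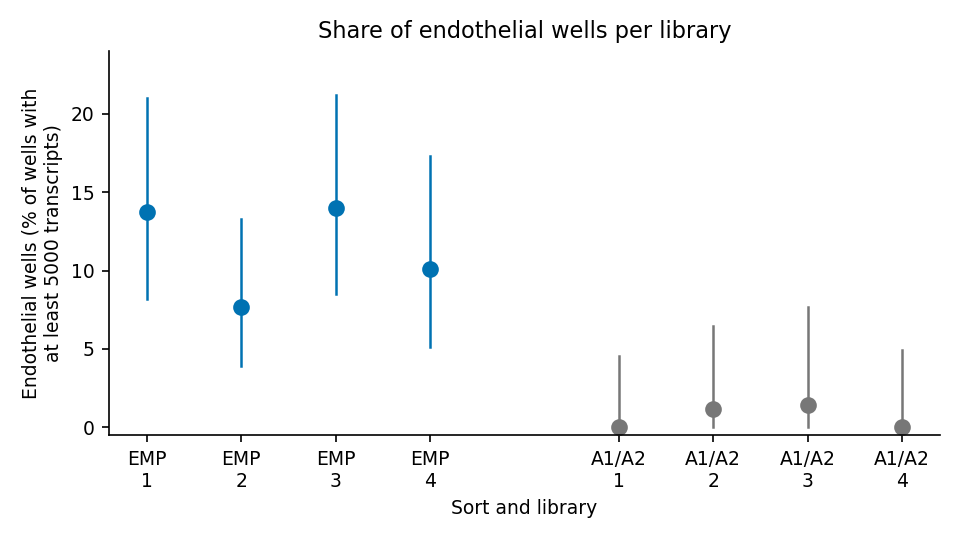
Share of wells with at least 5000 transcripts that meet the endothelial rule, per library, with exact 95% binomial intervals (lines) for counting error only. The 4 EMP libraries sit between 7.69% and 14% and the 4 A1/A2 libraries between 0% and 1.43%.

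The 2 wells of the A1/A2 libraries that met the rule were unlike each other. The one in library 2 held 62139 transcripts, among them 21 of Plvap, 12 of Ramp2, 8 each of Clec14a and Cldn5, 54 of Lyve1 and 2 of Stab2, and also had an endoderm ratio of 2.54. The one in library 3 held 13554 transcripts and met the rule through 17 Kdr transcripts, with 0 of the other 5 endothelial genes and of Lyve1. It had 3 transcripts each of Csf1r and Ptprc and a progenitor ratio of 1.93. With 2 such wells, gene levels of endothelial wells could not be compared between the sorts.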

How the data were processed

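Single cells were sequenced with mCEL-Seq2, a 3' method with a barcode per well and random identifiers, per the labels' protocols. BWA 0.6.2-r126 and Seurat were used, per the submitters' processing notes. What each of them did, the genome build, the annotation and the handling of reads shared by near-identical or antisense genes were details not given in the sources used here. The deposited values are estimated counts (transcripts of each gene in each well), and 100.0% of entries give whole identifiers (tolerance 1e-06) when the correction for 4096 identifiers is undone. They were rounded where whole numbers were needed. The authors' series table holds 689 of the A1/A2 wells, with the same estimated counts as the per-library tables used here.

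Wells with at least 5000 transcripts were sorted by the rule given in the text. Sums per library and class were tested with edgeR 4.0.16 in R 4.3.3 (glmQLFit with robust fit, TMM, filterByExpr, library as a block, Benjamini-Hochberg at 5%). SE was taken from the fold change and the F statistic. CPM are per 1e6 transcripts of the summed wells, without TMM. Summed totals of endothelial wells were 383755, 166209, 338220 and 245751 transcripts. Shares were compared with an exact permutation test. Alternatives used DESeq2 1.42.0, its size factors, other thresholds, thinned wells, no low-count filter, no block and each library left out. The fitting script was tested on simulated counts. The planned test of endothelial wells between sorts was not made, because 2 wells of the A1/A2 libraries met the rule.

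Members, gene lists and tests were chosen with earlier results of these data known. Named genes are the 8 markers, the 14 highest and 6 lowest called genes of at least 100 CPM with 1 direction in 4 of 4 libraries, up to 4 members per list by CPM (any detected member of the scavenger, arterial, venous, hemogenic and sort lists), and the 8 highest and up to 8 lowest called genes of at least 50 CPM in the Lyve1 comparison. Pecam1, Emcn, Tek and the wells of library 3 and of the A1/A2 libraries were picked out after values were seen. The 3 promoter windows were also searched on both strands for AGATAA, the letters bound by erythroid factors such as Gata1, with 0 matches, and 3281 of the 32851 windows hold it. Predicted, ribosomal protein and mitochondrial genes were not named.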

Additional observations from a re-analysis of the deposited data

Results flagged for a closer look

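For 10 of 122 genes checked, the library farthest from the other 3 lay beyond Dixon's 95% critical value in the endothelial wells, where chance flags about 1 in 20 groups. Library 3 was high for Lyve1 (1345 CPM) and for the mesenchyme genes Col1a1 (571 CPM), Col1a2 (420.0 CPM) and Acta2 (122 CPM), and low for Pecam1 (104 CPM). In library 3, 1 well held 184 of 193 Col1a1, 130 of 142 Col1a2 and 40 of 41 Acta2 transcripts. Its Lyve1 transcripts were spread over 17 of 18 wells, with at most 87 of 455 in 1 well. Library 1 was low for Tie1 (177 CPM) and high for Id1 (222 CPM). Library 2 was low for Flt4 (24.1 CPM) and Apob (241 CPM) and high for Jun (120.4 CPM).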

How the results depend on the processing

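The comparison of endothelial with other wells called 1342 genes, of which 57% were higher. It called 887 with a minimum of 10000 transcripts (67.5% higher), 574 with wells thinned to 5000, 2942 against endoderm wells alone, 2327 without members of an endoderm ratio of 0.5 or more (41.7% higher, added after the data were seen), and 730 to 1578 without 1 library (730 without EMP library 3, 72.1% higher; 873 without library 4). For the minimum of 10000 transcripts the rule was rerun on the wells left, so the members changed too. DESeq2 called 931 (69.7% higher) and without a replicate block 1324 were called. Against progenitor wells alone Car7 was at 0.97, Cubn at 0.82, Lad1 at 0.65, Nudt11 at 0.85 and Vil1 at 0.67, and against endoderm wells alone Bin2 was at 0.05.

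The Lyve1 comparison called 36 genes, against 0 with a minimum of 10000 transcripts (259 at an unadjusted p under 0.05), 4 at a minimum ratio of 3, 6 at a margin of 2, 17 with thinned sums, 6 split at the median of Lyve1, 17 without members of an endoderm ratio of 0.5 or more and 19 with all 4 libraries (both added after the data were seen), 55 without a filter on low counts, 1 by DESeq2 and 8 with no replicate block. Without 1 library it called 4 to 63 (4 without library 1, 63 without library 2, 15 without library 4). Stab2 was not tested without library 1 or without members of an endoderm ratio of 0.5 or more. In the latter setting 6 of the named genes were tested and 0 passed. With a minimum of 10000 transcripts Ctsz was at -0.24 and Mycn at 0.05. The cause of these shifts was not tested.

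The difference in share between sorts was 8.27 to 12.4 points with p = 0.0286 by the exact permutation test in the 6 other rules for wells. It was 9.84 to 11.9 points without 1 library (exact permutation p = 0.0571, the smallest possible). With the replicate block it was 10.7 points (exact permutation p = 0.125, the smallest possible). The titles carry the same numbers, P1 to P4, in both sorts, and no label says what a number marks. The correlations of deviations between libraries of the same number were 0.25, 0.53, -0.01 and 0.28. These do not settle whether libraries are paired, so the test is given both without and with the block. With 11 to 18 wells per library, genes under about 10 CPM rest on few transcripts.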
